A study of Homo sapiens with 12 samples.

Results

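The collagens, laminins and matrix glycoproteins studied here are 43 human genes, chosen by name from the rows of a raw count table. They comprise 23 collagen chains, 7 laminin chains, 4 proteins that link basement membrane networks, 5 matrix glycoproteins, and 4 enzymes that modify or crosslink collagen. Each symbol matched 1 of the 61541 rows. Of the 43 genes, 39 passed a filter on low counts, among 16768 genes in all. The other 4 (COL1A2, COL6A3, COL8A1 and LOX) reached at most 2, 15, 7 and 16 counts in any library.

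RNA sequencing was done on 12 libraries labelled A549, an established human lung adenocarcinoma line, at day 14 after transduction of the cells. In 6 libraries the cells carried the non-targeting guide gNTC1 and are labelled control. In the other 6 the cells carried a Cas9 knockout of TYMS (TS-KO), which encodes thymidylate synthase, the enzyme that makes thymidylate for DNA synthesis. Both kinds were cultured alone and also co-cultured, which gives 4 groups of 3 libraries, none with a drug. All groups were kept in high-glucose DMEM with fetal bovine serum. Per the series' design text, the co-cultured knockout cells had parental A549 cells beside them and proliferated again. Neither the partner of the co-cultured control cells, nor whether partners were separated before RNA was taken, nor whether the knockout cells were a clone or a pool, is given in the sources used here. Nothing says that the replicates were separate cultures, so p-values measure the spread between these libraries, which may be technical.

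Collagens and laminins are trimers. Laminins and type IV collagen form the sheets of basement membranes, which nidogens, perlecan and agrin tie together, while fibrillar collagens and fibronectin form the fibres of the interstitial matrix. Tenascin-C and thrombospondin-1 are matricellular proteins, which modify how cells attach rather than carry load. Lung epithelium rests on a basement membrane rich in laminin and type IV collagen, and carcinoma cells in culture can make many of these proteins themselves.

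Library totals ranged from 14921371 to 35723762 counts, so that 1 CPM (a read count relative to library size, scaled by TMM) was 16.2 to 33.6 counts. Replicates of a group differed in how their values followed transcript GC. Across 10441 genes, a library's deviation from its group mean was correlated by rank with GC. The correlation was lowest (-0.87) for replicate 3 in the co-cultured knockout and highest (0.86) for replicate 2 of that group. The other groups spread widely too. In lone control, co-cultured control and lone knockout it was -0.78, -0.64 and -0.71 for replicate 1, and 0.76, 0.76 and 0.71 for replicate 3. TYMS stood at 90.2 to 101 CPM in the control-labelled libraries, at 20.3 to 21.3 in the lone knockout and at 10.7 to 11.4 in the co-cultured knockout.

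The cell line label was checked against genes that define it. A549 is known to lack CDKN2A, CDKN2B and MTAP through a deletion on both copies of chromosome 9. The knockout libraries had 0 to 4 counts of CDKN2A, 0 of CDKN2B and 7 to 21 of MTAP. The control-labelled libraries had 921 to 2127 counts of CDKN2A, 26 to 71 of CDKN2B and 801 to 1571 of MTAP. EPCAM, an epithelial surface protein, stood at 94.3 to 119 CPM in the control-labelled libraries and at 0.15 to 0.91 CPM in the knockout libraries. Of the 7 epithelial markers 5 were lower and 1 higher in the lone knockout, and their sums overlap, at 11121 to 18174 CPM in the control-labelled and 8355 to 13705 CPM in the knockout libraries. A549 is also known for a KEAP1 mutation that keeps the targets of NRF2 high. A list of 10 such targets summed to 6948 to 8769 CPM in the control-labelled and 16128 to 17362 CPM in the knockout libraries. The counts of CDKN2A, CDKN2B and MTAP go against the A549 label for the control-labelled libraries. In every difference between knockout and control, the knockout and a difference between cell populations therefore cannot be told apart. The co-cultured and lone knockout libraries do not differ from each other in this way. The fibroblast markers (10 genes, 4 of them tested) summed to 8.07 to 14.5 CPM in the control-labelled and 21.2 to 30.1 CPM in the knockout libraries. DCN, LUM, FAP, POSTN and PRRX1 had at most 4 counts in any library, while THY1 and TWIST2 made up most of that sum. The endothelial list (6 genes) summed to at most 2.95 CPM in any library, and the leukocyte list (6 genes) to at most 6.93 CPM. The part of these markers in the results was not tested.

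Promoter sequences are shown for the members on which the results turn: FN1, which of the 5 matrix glycoproteins had the highest CPM in the knockout libraries; COL4A5 and COL4A6, a pair of type IV collagen genes that share the stretch between their start sites; LAMB3 and COL5A3, the 2 members whose co-culture difference differed between knockout and control-labelled cells; and THBS1, which was lower in co-cultured knockout cells. They are from RefSeq on GRCh38.p14, 5′ to 3′ on the strand of the gene (COL4A5 for the pair), and outside annotated exons. Capitals mark 4 motifs searched on both strands: the GC box GGGCGG, the CCAAT box CCAAT, the AP-1 site TGANTCA and the cyclic AMP response element TGACGTCA. The FN1 stretch is chr2:215436173-215436252 (minus), the COL4A6 and COL4A5 stretch chrX:108439588-108439837 (plus), the LAMB3 stretch chr1:209651395-209651624 (minus, before a start site inside the gene), the THBS1 stretch chr15:39580829-39581078 (plus) and the COL5A3 stretch chr19:10010505-10010754 (minus).
FN1: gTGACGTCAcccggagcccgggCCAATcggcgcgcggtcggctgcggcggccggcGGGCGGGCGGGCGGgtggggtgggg
COL4A6/COL4A5: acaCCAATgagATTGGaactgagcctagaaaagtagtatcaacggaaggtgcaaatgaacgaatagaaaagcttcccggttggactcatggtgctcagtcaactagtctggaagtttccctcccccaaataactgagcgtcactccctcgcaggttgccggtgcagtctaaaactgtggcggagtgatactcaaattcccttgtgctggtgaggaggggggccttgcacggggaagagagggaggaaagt
LAMB3: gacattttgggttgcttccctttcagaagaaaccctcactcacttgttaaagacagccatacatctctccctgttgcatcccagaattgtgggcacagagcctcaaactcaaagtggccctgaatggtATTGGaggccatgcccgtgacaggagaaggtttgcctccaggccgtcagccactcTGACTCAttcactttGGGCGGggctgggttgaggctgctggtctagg
THBS1: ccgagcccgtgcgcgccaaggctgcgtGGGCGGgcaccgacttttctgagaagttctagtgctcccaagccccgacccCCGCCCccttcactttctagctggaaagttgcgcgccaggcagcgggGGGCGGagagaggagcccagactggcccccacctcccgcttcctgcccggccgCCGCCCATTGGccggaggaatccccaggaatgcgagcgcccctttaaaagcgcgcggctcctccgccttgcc
COL5A3: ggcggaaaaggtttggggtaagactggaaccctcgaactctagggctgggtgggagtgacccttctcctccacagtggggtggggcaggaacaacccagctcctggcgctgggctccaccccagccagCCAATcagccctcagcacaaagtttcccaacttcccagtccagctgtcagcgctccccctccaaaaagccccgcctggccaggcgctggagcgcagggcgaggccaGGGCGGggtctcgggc

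The FN1 stretch held the response element, a CCAAT box and 3 overlapping GC boxes in 80 bases. The COL4A6 and COL4A5 stretch shown is the 250 bases next to the COL4A5 start, and the rest of the 379 bases is not shown. It held 2 CCAAT boxes and no GC box, though a window of COL4A6 held a GC box. The LAMB3 stretch held the AP-1 site beside a GC box. The THBS1 stretch held 4 GC boxes and 1 CCAAT box, which adjoins the last of them, and the COL5A3 stretch held 1 of each. RefSeq windows were matched for 35 of the 43 members, with 43 windows between them, and the 250 bases before the start were searched. A GC box was in 72.1% of the members' windows and in 42.6% of all 35116 windows. A CCAAT box was in 32.6% against 32.0%, and an AP-1 site in 6.98% against 6.57%. The AP-1 site was in 3 members, LAMA3, LAMB3 and MFAP2, and the other 2 LAMB3 windows, at the outer start of the gene, held none. The response element was in 1 member window, that of FN1 (2.33% against 1.65%). All 6 type IV collagen genes lie in head-to-head pairs. The starts of COL4A1 and COL4A2 on chromosome 13 are 126 bases apart, those of COL4A4 and COL4A3 on chromosome 2 are 418 apart, and those of COL4A6 and COL4A5 on chromosome X are 379 apart. A match to these letters is a description of the sequence only.

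The first comparison was of knockout with control-labelled cells, both grown alone. Most matrix genes were higher in the knockout libraries. Of 39 members tested with edgeR's quasi-likelihood test, 27 were higher and 6 lower at an adjusted p-value under 0.05, beside 56.6% of all genes tested. Thus 84.6% of the members were called, and their median log2 fold change was 1.63 against 0.09 for all genes. The members were chosen with earlier results of these data known. Their share beside that of all genes, here and in the later comparisons, is therefore a description only. In the whole table, 28% of genes were called higher and 28.6% lower. In bulk RNA, fewer cells of a type and less RNA per cell cannot be told apart. Summed over the 43 genes, the lone control had 2766 ± 352 CPM (SD, n = 3), while the lone knockout had 7507 ± 206 CPM (SD, n = 3). As a share of TMM-scaled counts, that was 0.277% and 0.751%.

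**Figure D1:**
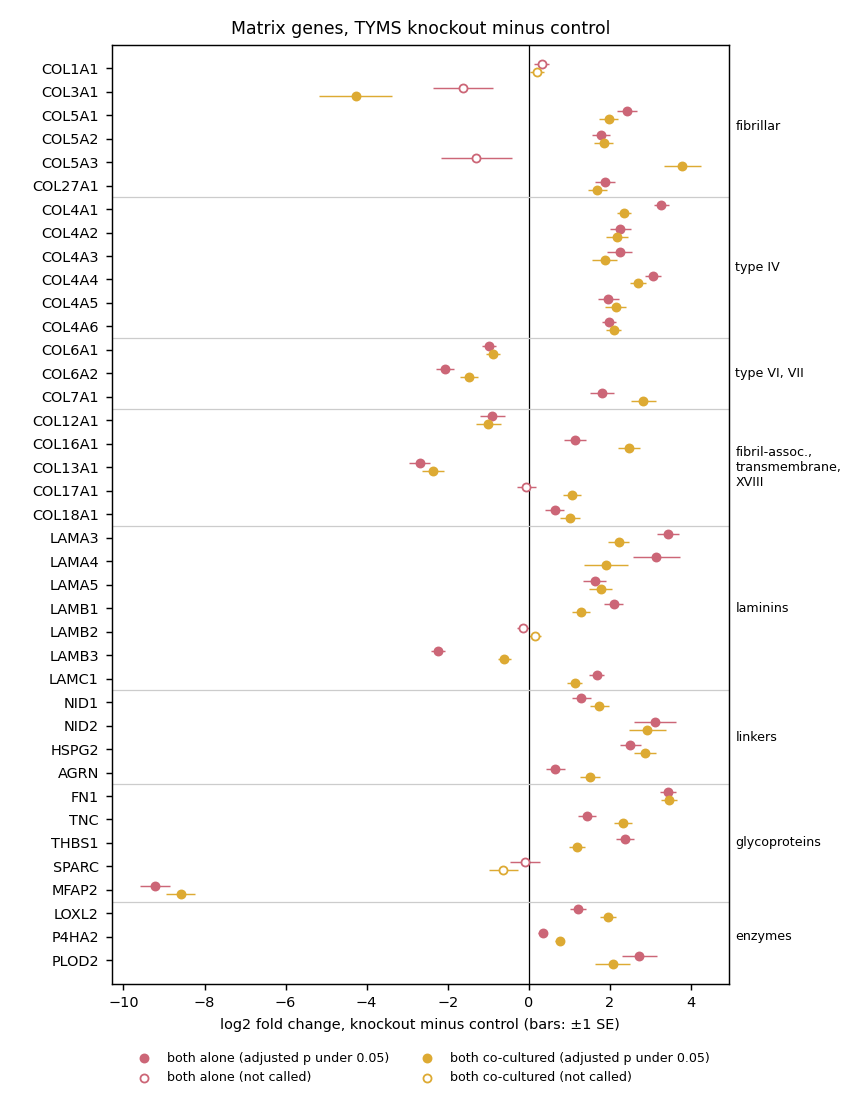
Log2 fold change of knockout minus control for each of the 39 matrix genes tested, by class, with cells alone in red and co-cultured cells in yellow; bars are 1 SE and filled points have an edgeR adjusted p under 0.05. Type IV collagens and linkers lie to the right of 0 in both settings, and MFAP2 lies far to the left at -9.22 and -8.59.

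All 6 type IV collagen chains, which make the network of basement membranes, were higher in the lone knockout, by log2 fold changes from 1.96 to 3.27. COL4A1, the α1 chain of the common network, stood at 29, 24.2 and 23.0 CPM in the 3 lone control libraries and at 258, 244 and 233 CPM in the lone knockout. Its partner COL4A2 stood at 150, 116 and 177 CPM and at 666, 743 and 716 CPM. The groups do not overlap for either chain, and COL4A2 was the more abundant of the pair in both groups also per kilobase of exon (7.66 and 36.7 CPM per kb against 1.73 and 16.6). COL4A1 differed by 3.27 (SE 0.19, edgeR adjusted p = 2.36e-08) and COL4A2 by 2.26 (SE 0.26, edgeR adjusted p = 1.26e-05), on the log2 scale. COL4A4, a chain known from kidney and lung basement membranes, stood at 3.10, 3.63 and 3.06 CPM in the lone control and at 29.9, 29.1 and 22.9 CPM in the lone knockout, a log2 difference of 3.06 (SE 0.20, edgeR adjusted p = 6.25e-08). Between the chains of each head-to-head pair, COL4A5 and COL4A6 had nearly the same log2 fold change, 1.96 and 1.98, while those of COL4A3 and COL4A4 were 2.24 and 3.06. Differences between chains were not tested.

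Of the 7 laminin chains, 5 were higher and LAMB3 lower in the lone knockout. LAMA5, the α5 chain of most adult epithelial basement membranes stood at 316, 211 and 316 CPM in the lone control and at 851, 870 and 880 CPM in the lone knockout. That was a log2 difference of 1.63 (SE 0.28, edgeR adjusted p = 0.000301), and per kilobase of exon LAMA5 was the most abundant laminin chain in both groups (19.7 and 60.7 CPM per kb). LAMA3, the α chain of laminin-332, stood at 7.86, 5.97 and 4.09 CPM and at 80.3, 58.5 and 55.4 CPM, a difference of 3.44 (SE 0.28, edgeR adjusted p = 4.42e-07). LAMB3, the β chain of the same trimer, went the other way. It stood at 71.8, 83.1 and 94.8 CPM in the lone control and at 15.8, 16.7 and 20.1 CPM in the lone knockout, a log2 difference of -2.25 (SE 0.17, edgeR adjusted p = 2.46e-07). LAMA4, an α chain known from vessels, was scarce in both groups, with 6 counts over the 3 lone control libraries and 67 over the 3 lone knockout libraries. Its ratio of levels was 9.4 (95% interval 4.3 to 25.6, from counting error of the lower count only). Its log2 fold change was 3.15 (SE 0.58, edgeR adjusted p = 0.000532), or 4.1 without replicate 2 of the lone control. LAMA4 passed the filter on low counts only through the knockout libraries, where it is higher. LAMB1 and LAMC1, the β and γ chains found in most laminins, were higher by 2.10 and 1.67. LAMB2, an alternative β chain, did not pass the test (98.0 ± 14.1 and 89.0 ± 1.72 CPM, SD, n = 3 each).

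All 4 linkers were higher in the lone knockout. HSPG2, which encodes the heparan sulfate proteoglycan perlecan, stood at 132, 102 and 165 CPM in the lone control and at 764, 775 and 725 CPM in the lone knockout, a log2 difference of 2.50 (SE 0.26, edgeR adjusted p = 5.25e-06). NID2, one of the nidogens that bridge laminin and type IV collagen, had 17 counts over the 3 lone control libraries and 175 over the 3 lone knockout libraries. Its levels were 0.06 to 0.50 CPM and 2.88 to 2.98 CPM, and it differed by 3.10 (SE 0.52, edgeR adjusted p = 0.000248). AGRN, which encodes agrin and had the highest level of the linkers per kilobase of exon in every group, stood at 407, 357 and 501 CPM and at 635, 653 and 703 CPM. The groups do not overlap, and the log2 fold change was 0.65 (SE 0.23, edgeR adjusted p = 0.029). That call was lost when any 1 of 5 libraries was left out, namely replicates 1 and 2 of the lone control (adjusted p = 0.0641 and 0.116) and replicates 1, 2 and 3 of the lone knockout (0.0506, 0.0597 and 0.0758). It was also lost with DESeq2 size factors in place of TMM (edgeR adjusted p = 0.0666).

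Among the glycoproteins, FN1 showed the largest gain and MFAP2 the largest loss. FN1 encodes fibronectin, which cells assemble into fibrils through integrins. It stood at 154, 104 and 110 CPM in the lone control and at 1467, 1389 and 1139 CPM in the lone knockout. The lowest knockout library was above the highest control library, and the log2 fold change was 3.44 (SE 0.20, edgeR adjusted p = 2.5e-08). Per kilobase of exon FN1 had the highest level of the 43 genes in the lone knockout, at 76.9 CPM per kb, where COL18A1 led in the lone control at 42.5 CPM per kb. MFAP2, a protein of elastin-associated microfibrils, stood at 63.7, 89.0 and 93.8 CPM in the lone control and at 0.21, 0.15 and 0 CPM in the lone knockout. It had 4194 counts over the 3 lone control libraries against 8 over the 3 lone knockout libraries. Its level was 622.3 times higher in the control (95% interval 315.8 to 1441.4, from counting error of the lower count only). Its fitted log2 fold change was -9.22 (SE 0.38, edgeR adjusted p = 1.45e-09), or -9.88 without replicate 1 of the lone knockout. MFAP2 passed the filter on low counts only through the control-labelled libraries, where it is high. THBS1, thrombospondin-1, stood at 28.2, 21.4 and 20.5 CPM and at 136, 117 and 111 CPM, and was higher by 2.38 (SE 0.22, edgeR adjusted p = 1.37e-06). TNC, tenascin-C, stood at 10.5, 8.0 and 9.06 CPM and at 27.1, 23.8 and 23.3 CPM, and was higher by 1.43 (SE 0.22, edgeR adjusted p = 0.000133). SPARC, a collagen-binding matricellular protein, did not pass the test (2.32 ± 0.27 and 2.20 ± 1.19 CPM, SD, n = 3 each).

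**Figure D2:**
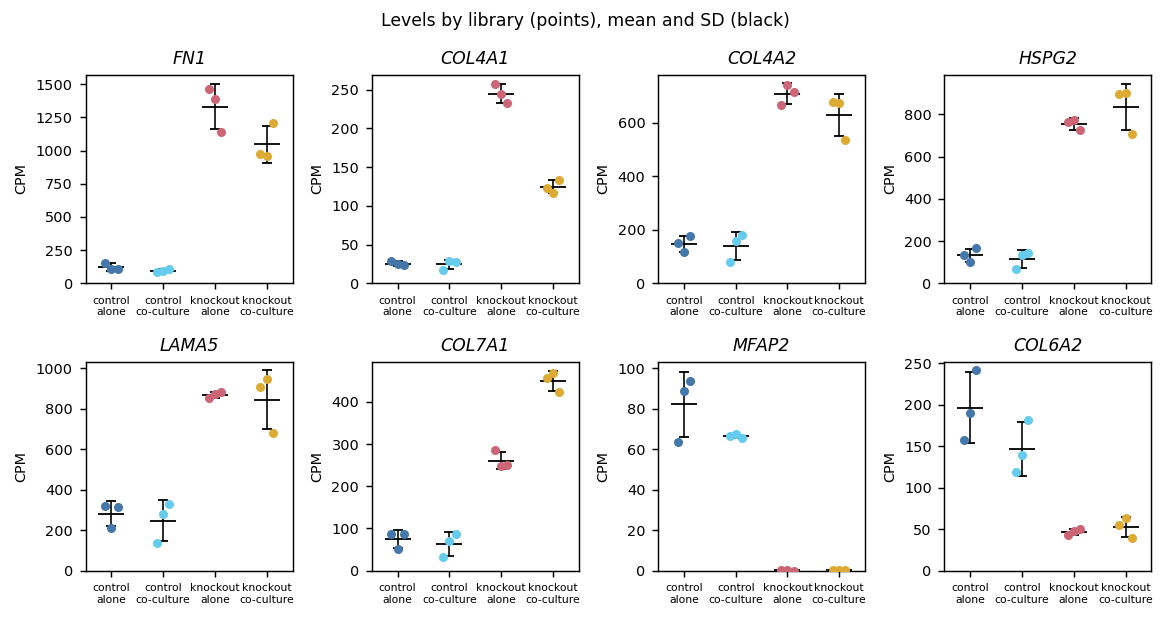
TMM-scaled CPM of 8 matrix genes in each of the 12 libraries (points), with the mean and SD of each group of 3 in black; each panel has its own linear axis from 0. FN1, COL4A1, COL4A2, HSPG2, LAMA5 and COL7A1 lie higher in all 6 knockout libraries than in any control-labelled library, and MFAP2 and COL6A2 lie lower.

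Of the 6 fibrillar collagens tested, 3 were higher and none lower in the lone knockout. COL5A1, a type V chain that limits the width of type I fibrils, stood at 46.8, 43.3 and 62.7 CPM in the lone control and at 271, 269 and 279 CPM in the lone knockout. It differed by 2.42 (SE 0.24, edgeR adjusted p = 2.59e-06). COL27A1, known from cartilage, stood at 15.7, 7.94 and 11.2 CPM and at 51.8, 37.7 and 39.7 CPM, a log2 difference of 1.89 (SE 0.24, edgeR adjusted p = 3.12e-05). COL5A2 was the other fibrillar chain called, at 1.78. COL1A1, the main chain of type I collagen, did not pass the test (18.1 ± 1.56 and 22.5 ± 1.41 CPM, SD, n = 3 each). Its partner COL1A2 had 0 counts in the 6 control-labelled libraries, where 3 counts would be 0.11 to 0.19 CPM, and at most 2 counts in a knockout library. COL3A1 stayed under 1 CPM in the lone cells, and COL5A3 under 0.33 CPM.

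The remaining collagens were divided. COL7A1, which forms the anchoring fibrils below epithelia, stood at 87.4, 50.2 and 87.8 CPM in the lone control and at 285, 247 and 251 CPM in the lone knockout, a log2 difference of 1.80 (SE 0.30, edgeR adjusted p = 0.00024). COL6A2, a chain of the beaded filaments of type VI collagen, stood at 157, 190 and 241 CPM and at 42.4, 47.1 and 50.2 CPM, and differed by -2.08 (SE 0.22, edgeR adjusted p = 5.66e-06). COL6A1 was also lower, by -0.98, so that both measured type VI chains were lower, while the third chain on the list, COL6A3, was at most 0.63 CPM. COL13A1, a transmembrane collagen, stood at 5.94, 5.54 and 5.73 CPM and at 0.76, 0.65 and 1.28 CPM, a difference of -2.70 (SE 0.27, edgeR adjusted p = 2.64e-06). COL16A1, a fibril-associated collagen, stood at 3.9, 3.08 and 5.19 CPM and at 8.63, 9.30 and 9.06 CPM, higher by 1.15 (SE 0.27, edgeR adjusted p = 0.00298). COL12A1, also fibril-associated, was lower by -0.90. COL18A1, the basement membrane collagen from which endostatin is cut, stood at 318, 321 and 448 CPM and at 519, 557 and 617 CPM, higher by 0.64 (SE 0.24, edgeR adjusted p = 0.0343). The COL18A1 call was lost without replicate 1 or 2 of the lone control (adjusted p = 0.0951 and 0.121) or replicate 2 or 3 of the lone knockout (0.0688 and 0.0973), and that of COL12A1 without replicate 1 of the lone control (0.0881) or replicate 2 or 3 of the lone knockout (0.0677 and 0.0735). COL18A1 also lost its call with DESeq2 size factors (edgeR adjusted p = 0.0783) and with the DESeq2 Wald test (adjusted p = 0.0622). COL12A1 lost its call with library size only (edgeR adjusted p = 0.112).

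All 3 collagen-modifying enzymes tested were higher in the lone knockout. LOXL2, a lysyl oxidase that crosslinks collagen, stood at 144, 157 and 197 CPM in the lone control and at 359, 396 and 406 CPM in the lone knockout, a log2 difference of 1.22 (SE 0.20, edgeR adjusted p = 0.000205). PLOD2, which hydroxylates lysines of collagen telopeptides, stood at 30.0, 15.8 and 11.5 CPM and at 154, 119 and 105 CPM, higher by 2.73 (SE 0.44, edgeR adjusted p = 0.000181). P4HA2, a subunit of the prolyl hydroxylase that stabilises the triple helix, stood at 63.5, 70.4 and 72.1 CPM and at 86.6, 88.3 and 86.3 CPM, higher by 0.34 (SE 0.12, edgeR adjusted p = 0.0223). The P4HA2 groups do not overlap, but its call was lost without replicate 1 or 2 of the lone control (adjusted p = 0.0603 and 0.0511) or replicate 2 or 3 of the lone knockout (0.0637 and 0.0504). It was also lost with DESeq2 size factors (edgeR adjusted p = 0.113) and with the DESeq2 Wald test (adjusted p = 0.0854). The same held without the filter (edgeR adjusted p = 0.245) and with only the groups compared in the fit (edgeR adjusted p = 0.0638). LOX itself did not pass the filter, with at most 0.68 CPM in any library.

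GC content moved with these differences. Across the 39 members the rank correlation of the log2 fold change with transcript GC was -0.45, and -0.40 across 16505 genes. The members' median GC was 53.9%, against 50.4% for all genes. With offsets that removed each library's GC trend, 35 members were called (29 higher and 6 lower), and several GC-rich members moved by over 1.5-fold. AGRN then differed by 1.79, COL18A1 by 1.81, COL7A1 by 2.78, LAMA5 by 2.66, HSPG2 by 3.43 and LOXL2 by 1.84, with COL5A1, COL27A1 and COL16A1 also farther from 0 (3.07, 2.47 and 2.01). COL6A2, LAMB3, MFAP2 and PLOD2 moved nearer to 0, by over 1.5-fold each, and stayed called (LAMB3 at -1.66 and PLOD2 at 2.09). COL6A1 moved to -0.04 and lost its call, and COL1A1, COL3A1 and LAMB2 were gained. Scaled by library size alone, the median over all genes was 0.24 in place of 0.09 and that of the members 1.78. Of the 33 calls, 28 were kept under each of the 22 alternatives in which the gene could be tested (24 higher and 4 lower).

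**Figure D3:**
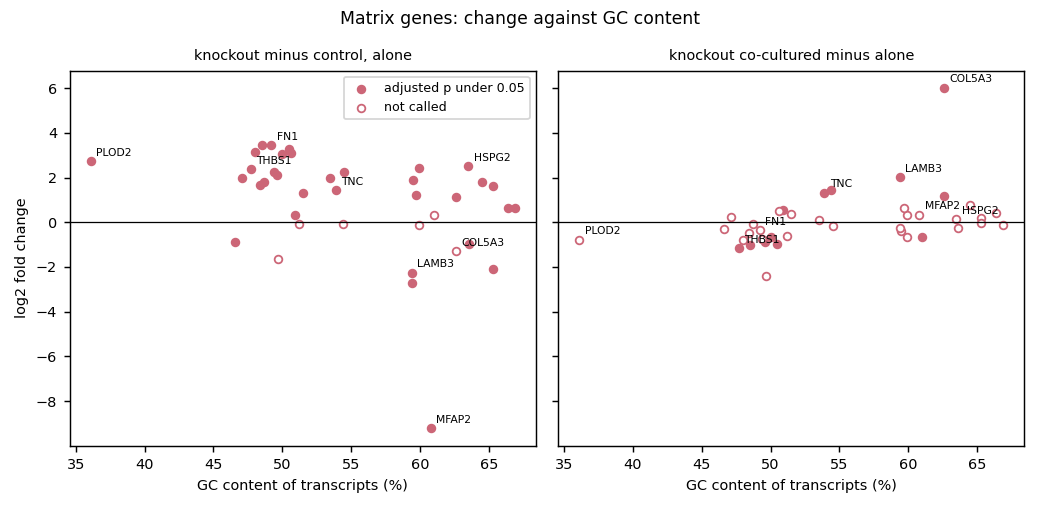
Log2 fold change (vertical) against GC content of transcripts in percent (horizontal) for the 39 matrix genes tested, in lone knockout minus control (left) and in knockout co-cultured minus alone (right); filled points have an edgeR adjusted p under 0.05. GC-poor genes tend to lie higher on the left (rank correlation -0.45) and lower on the right (0.51).

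The second comparison was of co-cultured with lone knockout cells, which asks what changed when the knockout cells grew beside parental cells. The matrix genes did not move together. Of the 39 members, 6 were higher and 6 lower in co-culture, 30.8% in all, beside 11.4% of all genes tested (5.97% higher and 5.4% lower). The median log2 fold change of the members was -0.13, against 0.01 for all genes. Summed over the 43 genes, the level was 7375 ± 514 CPM (SD, n = 3) in co-culture, and its range of 6794 to 7768 CPM spans that of the lone knockout (7283 to 7687). MFAP2, near 0 in the lone knockout, had 14 counts over the 3 co-cultured knockout libraries and 4493 in the co-cultured control.

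COL5A3, the third chain of type V collagen, showed the largest difference. It passed the filter on low counts only through the co-cultured knockout, the group where it is high. It had 0, 1 and 4 counts in the lone knockout libraries (0 to 0.24 CPM) and stood at 7.15, 5.66 and 4.77 CPM in co-culture. With 484 counts over the 3 co-cultured libraries against 5 over the 3 lone ones, the level was 69.7 times higher (95% interval 29.9 to 214.7, from counting error of the lower count only). The fitted log2 fold change was 6.02 (SE 0.59, edgeR adjusted p = 7.57e-05), and it was 5.34 without replicate 1 of the lone knockout and 7.67 without its replicate 3. Per kilobase of exon COL5A3 reached 0.87 CPM per kb in co-culture, against 15.5 for COL5A1 and 18.9 for COL5A2, so it remained the scarcest of the type V chains.

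LAMB3, the laminin β3 chain, stood at 15.8, 16.7 and 20.1 CPM in the lone knockout and at 70.5, 82.4 and 61.1 CPM in co-culture. It was higher by 2.03 (SE 0.17, edgeR adjusted p = 2.4e-05), with no overlap between the groups. LAMA3, its α partner, stood at 80.3, 58.5 and 55.4 CPM alone and at 24.5, 29.6 and 40.8 CPM in co-culture, lower by a log2 difference of -1.03 (SE 0.25, edgeR adjusted p = 0.0206). Thus the 2 chains that differed from control in opposite directions in lone cells also moved in opposite directions here, each toward its control level. LAMB1 was lower too, at -0.90.

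TNC stood at 27.1, 23.8 and 23.3 CPM in the lone knockout and at 64.5, 61.0 and 59.3 CPM in co-culture, higher by 1.32 (SE 0.21, edgeR adjusted p = 0.00242). THBS1, the other matricellular gene, stood at 136, 117 and 111 CPM and at 47.2, 42.9 and 71.7 CPM, lower by -1.17 (SE 0.21, edgeR adjusted p = 0.0041). TNC thus lay farther from the control-labelled level in co-culture than alone, and THBS1 nearer to it. FN1 did not pass the test in this comparison (1332 ± 171 and 1047 ± 140 CPM, SD, n = 3 each).

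Of the type IV chains, 2 of 6 were lower in co-culture and none higher. COL4A1 stood at 258, 244 and 233 CPM alone and at 124, 117 and 134 CPM in co-culture, a log2 difference of -0.97 (SE 0.17, edgeR adjusted p = 0.00412). COL4A2, whose start lies 126 bases from that of COL4A1, stood at 666 to 743 CPM alone and at 537 to 677 CPM in co-culture and did not pass the test. COL4A4 stood at 29.9, 29.1 and 22.9 CPM and at 16.3, 16.3 and 19.98 CPM, a difference of -0.64 (SE 0.18, edgeR adjusted p = 0.0395).

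Among the other collagens, COL17A1, the transmembrane collagen of hemidesmosomes, stood at 1.82, 1.59 and 1.70 CPM alone and at 4.95, 5.03 and 3.84 CPM in co-culture, higher by 1.43 (SE 0.22, edgeR adjusted p = 0.00187). COL16A1 stood at 8.63, 9.30 and 9.06 CPM and at 22.1, 23.2 and 16.5 CPM, higher by 1.20 (SE 0.26, edgeR adjusted p = 0.0134). COL1A1 stood at 21.4, 22.0 and 24.1 CPM and at 14.7, 16.2 and 12.4 CPM, lower by -0.64 (SE 0.18, edgeR adjusted p = 0.0419). The groups do not overlap for any of these 3 genes. Of the enzymes, P4HA2 stood at 86.6, 88.3 and 86.3 CPM and at 122, 138 and 118 CPM, higher by 0.53 (SE 0.12, edgeR adjusted p = 0.0126). None of the 3 type VI and VII collagens tested and none of the 4 linkers passed the test. COL7A1 had no overlap between the groups all the same, at 247 to 285 CPM alone and 423 to 468 CPM in co-culture. Of the 39 members, 11 lay wholly higher and 10 wholly lower in co-culture, and that share was not counted over all genes.

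**Figure D4:**
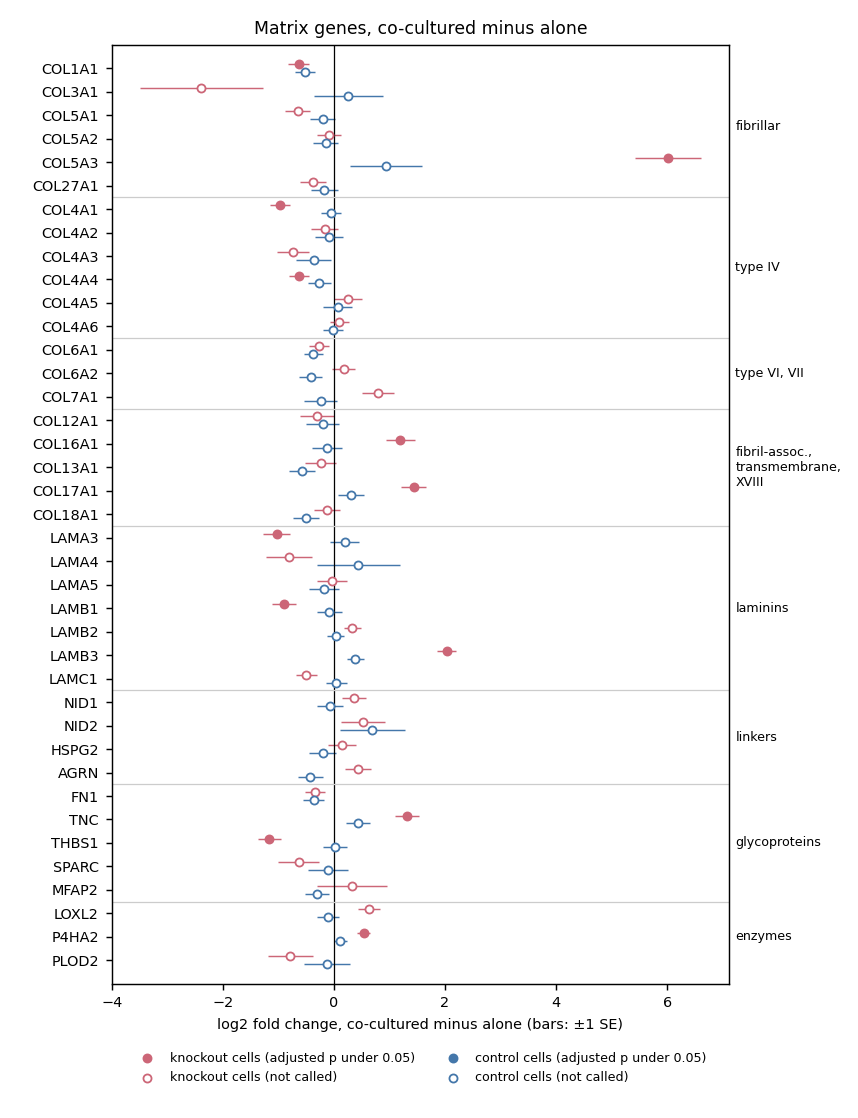
Log2 fold change of co-cultured minus lone cells for each of the 39 matrix genes tested, by class, in knockout cells (red) and control-labelled cells (blue); bars are 1 SE and filled points have an edgeR adjusted p under 0.05. COL5A3 at 6.02 and LAMB3 at 2.03 lie farthest to the right in knockout cells, and no control point is filled.

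Set against the lone comparison, 5 of the 27 members that were higher in the lone knockout were lower in co-culture (COL4A1, COL4A4, LAMA3, LAMB1 and THBS1), 3 were higher still (COL16A1, TNC and P4HA2) and 19 were not called. Of the 6 that were lower in the lone knockout, LAMB3 was higher in co-culture and 5 were not called. The lone knockout libraries enter both comparisons, and so these counts are not independent. The same split was not counted over all genes.

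Single libraries decided part of the 12 calls. Without replicate 1 or 2 of the lone knockout 6 calls were left in each case, and without replicate 1 or 2 of the co-cultured knockout 7 in each case. COL5A3, LAMB3, COL17A1, TNC, THBS1 and COL4A1 were called under all 22 alternatives. COL16A1, LAMA3, LAMB1, P4HA2, COL1A1 and COL4A4 each lost the call when some knockout library was left out, with adjusted p-values up to 0.0662 for COL16A1 (without replicate 1 of the co-cultured knockout), 0.116 for LAMA3 and 0.126 for LAMB1 (both likewise), 0.0617 for P4HA2 (without replicate 2 of the co-cultured knockout), 0.134 for COL1A1 and 0.17 for COL4A4 (both without replicate 1 of the co-cultured knockout). COL1A1 and COL4A4 also lost theirs without some control-labelled libraries, which enter through the shared estimate of spread. Without replicate 3 of the co-cultured knockout, the library with the lowest correlation with GC, 20 members were called (10 higher and 10 lower), the 12 among them. The rank correlation of the log2 fold change with GC was 0.51 across the 39 members and 0.45 across all genes. With GC offsets 17 members were called (6 higher and 11 lower), again with the 12 among them. Of all genes called, 52.5% were higher in co-culture, but 69.7% with scaling by library size alone and 38.9% with GC offsets. Among members, library size alone gave 7 higher and 4 lower, with COL4A4, LAMA3 and LAMB1 lost and COL5A1 and LOXL2 gained. With only the groups compared in the fit, COL1A1, COL4A4, LAMA3, LAMB1 and P4HA2 lost their calls, and COL5A1 and COL7A1 were gained. COL1A1 and COL4A4 were each kept under 10 of the 22 alternatives.

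**Figure D5:**
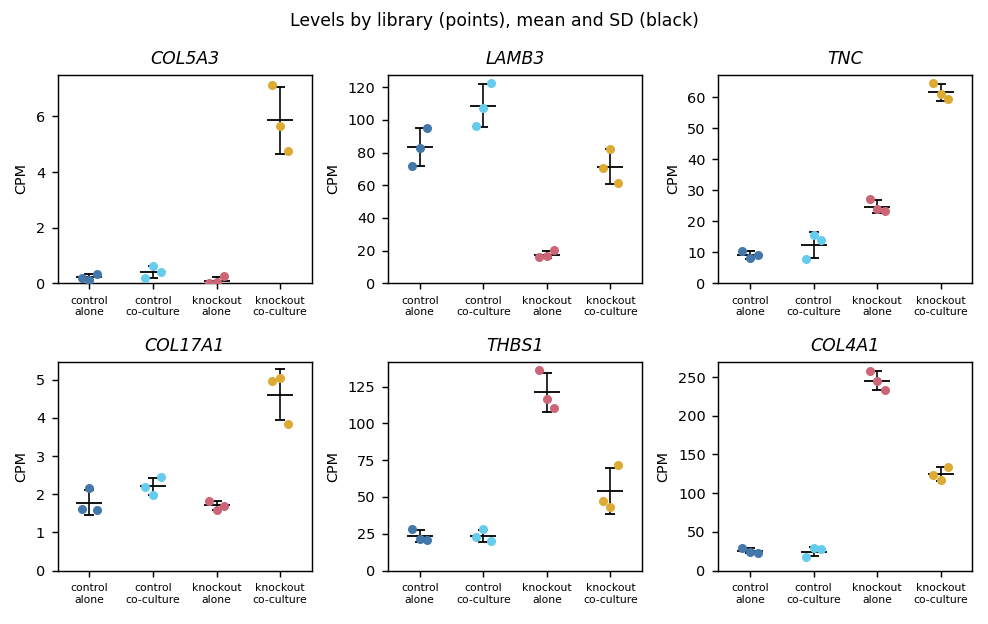
TMM-scaled CPM of 6 matrix genes in each of the 12 libraries (points), with the mean and SD of each group of 3 in black; each panel has its own linear axis from 0. Co-cultured knockout libraries lie above the lone knockout for COL5A3, LAMB3, TNC and COL17A1 and below it for THBS1 and COL4A1, with no overlap in any of these panels.

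The third comparison was of knockout with control-labelled cells, both co-cultured. Here 36 of the 39 members (92.3%) were called, 29 higher and 7 lower, beside 49.4% of all genes (24.1% higher and 25.3% lower). The median log2 fold change of the members was 1.77, against -0.02 for all genes. All 33 members called in the lone cells were called in the same direction. Both comparisons set the same kinds of cells against each other, and the share of all genes that kept their direction was not counted. The 3 others were COL5A3 (higher by 3.79, SE 0.46, edgeR adjusted p = 2.08e-05) and COL17A1 (higher by 1.06, SE 0.22, edgeR adjusted p = 0.00133), joined by COL3A1, which was lower. COL3A1, a fibrillar collagen, was scarce in both groups. It stood at 0.42 to 1.30 CPM in the co-cultured control and at most 0.07 CPM in the co-cultured knockout. Its log2 difference was -4.27, but -3.64 without replicate 2 of the co-cultured knockout and -5.09 without its replicate 3. COL3A1 passed the filter on low counts through the control-labelled libraries, where it is higher.

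FN1 stood at 85.1, 92.7 and 108 CPM in the co-cultured control and at 972, 962 and 1208 CPM in the co-cultured knockout, a log2 difference of 3.46 (SE 0.20, edgeR adjusted p = 2.56e-08). HSPG2 was higher by 2.86 (SE 0.27, edgeR adjusted p = 2.02e-06), COL7A1 by 2.82 (SE 0.31, edgeR adjusted p = 8.2e-06) and LOXL2 by 1.95 (SE 0.20, edgeR adjusted p = 5.29e-06). Per kilobase of exon LOXL2 had the highest level of the 43 genes in the co-cultured knockout, at 105 CPM per kb, followed by AGRN at 83.2. LAMB3 stood at 96.3, 108 and 122 CPM in the co-cultured control and at 70.5, 82.4 and 61.1 CPM in the co-cultured knockout, lower by -0.61 (SE 0.16, edgeR adjusted p = 0.00649). That call was lost with only the groups compared in the fit (-0.56, adjusted p = 0.0552). MFAP2 stayed near 0 in the knockout: 4493 against 14 counts gave a level 397.1 times higher in the control (95% interval 236.7 to 726.3, from counting error of the lower count only). Without replicate 3 of the co-cultured knockout the same 36 members were called, while PLOD2 differed by 1.38 in place of 2.07. COL12A1 lost its call without replicate 1 of the co-cultured control (adjusted p = 0.0503) or of the co-cultured knockout (0.0559). Of the 36 calls, 34 were kept under each of the 22 alternatives in which the gene could be tested.

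The control-labelled cells showed no called difference between co-culture and growth alone. None of the 39 members and none of the 16768 genes (0%) passed in edgeR. At an unadjusted p under 0.05 there were 3 members and 540 genes, and DESeq2 called 0 members and 0 genes. The members' log2 fold changes ran from -0.57 for COL13A1 to 0.93 for COL5A3, and those of the 43 genes summed to 2352 ± 559 CPM (SD, n = 3) in co-culture. COL13A1 stood at 5.94, 5.54 and 5.73 CPM alone and at 3.38, 3.9 and 4.28 CPM in co-culture, which do not overlap. COL5A3 stood at 0.19, 0.12 and 0.33 CPM and at 0.18, 0.61 and 0.41 CPM. LAMB3 stood at 71.8, 83.1 and 94.8 CPM and at 96.3, 108 and 122 CPM, with no overlap between the groups. Of the 39 members, 1 lay wholly higher and 2 wholly lower in co-culture, and that share was not counted over all genes. With GC offsets fitted within groups, 3 members were called here, COL6A2, COL18A1 and LAMB3.

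Whether the co-culture difference itself differed between knockout and control-labelled cells was tested as an interaction. It was called for 2 of the 39 members, both larger in the knockout, beside 1.8% of all genes (1.51% larger and 0.286% smaller). For LAMB3 the co-culture difference was larger in knockout cells by 1.64 (SE 0.23, edgeR adjusted p = 0.00324) on the log2 scale, and this was called under each of the 21 alternatives that could be run. For COL5A3 it was larger by 5.08 (SE 1.007, edgeR adjusted p = 0.0225). The COL5A3 call was lost without replicate 3 of the lone control (4.61, adjusted p = 0.151), replicate 2 of the lone knockout (4.82, adjusted p = 0.0734) or replicate 1 of the co-cultured knockout (4.91, adjusted p = 0.0576), and its value was 4.41 without replicate 1 of the lone knockout and 6.73 without replicate 3. The interaction had a rank correlation with GC of 0.64 across the members and 0.55 across all genes, and the transcripts of COL5A3 and LAMB3 have 62.6% and 59.4% GC. With GC offsets both were called, at 4.56 and 1.19. Of all genes called, 84.1% were larger in the knockout, but 44.1% with GC offsets. Then 7 members were called in all, and without replicate 3 of the co-cultured knockout 13 were, with 7 larger and 6 smaller in the knockout. For TNC, THBS1, COL17A1 and COL4A1, called in knockout co-culture, the interaction did not pass the test. Under some alternatives it did. Each of these genes was called with GC offsets within groups and without replicate 3 of the co-cultured knockout. THBS1, COL4A1 and COL17A1 were also called with the DESeq2 Wald test, and THBS1 and COL4A1 with GC offsets against all libraries. THBS1 was called with DESeq2 size factors too.

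Other matrix genes, from lists that complete the families of the 43, were counted in the same way. Among 10 other collagens tested of 19, 3 were higher and 3 lower in the lone knockout (60%, beside 56.6% of all genes). COL11A1, a fibrillar chain, was highest (0.60 and 23.6 CPM on average, log2 fold change 5.30), and COL9A3, a fibril-associated chain, was lowest (34.6 and 0.09 CPM, -8.59). In the lone knockout COL9A3 lay under the level of 3 counts (0.13 to 0.18 CPM), so its fold rests on few counts there. Of 29 other glycoproteins tested of 36, 16 were higher and 5 lower (72.4%). FBN1, which encodes fibrillin-1 of microfibrils, was higher by 4.55 (3.21 and 75.0 CPM), and NPNT, which encodes nephronectin, lower by -3.98. MFAP5, a microfibril gene, had 0 counts in the lone control and stood at 0.73 CPM on average in the lone knockout. LAMA2, a laminin chain outside the 43 genes, was lower by -2.98.

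Of 24 other collagen-processing enzymes tested, 7 were higher and 13 lower in the lone knockout (83.3%, beside 56.6% of all genes), with a median log2 fold change of -0.62. Between the co-cultured groups 7 were higher and 6 lower (54.2%, beside 49.4% of all genes), with a median of -0.09. P4HA3, a prolyl hydroxylase subunit, was higher by 3.43 (5.68 and 61.3 CPM), and ADAMTS14, a procollagen N-proteinase, lower by -6.31 (16.3 and 0.20 CPM). In the lone knockout ADAMTS14 lay near the level of 3 counts (0.13 to 0.18 CPM), so its fold rests on few counts there. Of 8 matrix receptors tested outside the integrins, 2 were higher and 3 lower in the lone knockout (62.5%, beside 56.6%). SDC1, syndecan-1, was higher by 1.11 and the collagen receptor DDR1 lower by -1.96 (501 and 129 CPM). In co-cultured against lone knockout cells, 9 of the 29 glycoproteins were called, 3 higher and 6 lower (31%, beside 11.4% of all genes). ECM1 was higher by 1.48 (5.04 and 14.1 CPM) and MATN2, matrilin-2, lower by -1.57 (37.9 and 12.8 CPM). Of the 10 collagens, COL28A1 was higher by 1.84 and COL21A1 lower by -3.77, both under 1 CPM. SDC4, syndecan-4, was the 1 receptor called, higher by 0.71 (117 and 191 CPM), and none of the 24 enzymes was called.

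Exons of several members overlap those of other genes in GENCODE 29, among them COL4A2 (COL4A2-AS1 and COL4A2-AS2), LAMA5 (ADRM1), LAMB1 (DLD), HSPG2 (LDLRAD2), TNC (DEC1), THBS1 (FSIP1), COL18A1 (SLC19A1) and COL5A3 (AC008742.1). All of these partners lie on the opposite strand. The strand setting of the counting is not given in the sources used here, so reads of such pairs cannot be told apart. Exons of LOXL2 overlap those of ENTPD4 on the same strand, where a strand setting would not separate them.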

How the data were processed

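The authors deposited 1 table of raw counts per Ensembl gene for 12 libraries, used as deposited. Per the submitters' processing notes, FastQC, STAR 2.7.9a, featureCounts, R 4.2.1 and DESeq2 1.36.0 were used with GRCh38. Annotation release and strand setting are not given in the sources used here. Libraries were assigned to groups by their titles. Symbols and positions came from matching gene identifiers to GENCODE 29 (58366 of 61541 rows).

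Counts were tested in R 4.3.3 with edgeR 4.0.16: filterByExpr, TMM, 1 model of 4 group means, robust quasi-likelihood F-test, Benjamini-Hochberg over all 16768 genes per comparison, called under 0.05. Scripts were tested on simulated data. CPM is TMM-scaled, ± is the SD over 3 libraries, and levels per kb use the merged exon length. Intervals cover counting error of the lower group's count only, with the higher count taken as exact, and floors cover counting error only. An exact permutation test of 3 against 3 libraries cannot give p under 0.1, so none is reported. No pair of replicates was a repeated library (chi-square per gene 8.31 to 130).

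Alternatives were DESeq2 1.42.0 (size factors, Wald test), library size only, other filters, only the groups compared, GC offsets (splines of 5 degrees of freedom), a replicate block, leaving out each library, and a log2 fold change of at least 1. Libraries gave values for members that, in their class, had one of the 2 largest called changes or the highest mean CPM; the listed genes outside the 43 were named by the largest called change in each direction, except a result not reported here. The members, lists and naming rule were chosen with earlier results of these data known.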

Additional observations from a re-analysis of the deposited data

Results flagged for a closer look

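For 2 members the difference between co-cultured and lone cells differed between knockout and control-labelled cells by a test of the difference itself. For COL5A3 the interaction was 5.08 on the log2 scale (edgeR adjusted p = 0.0225), and for LAMB3 it was 1.64 (edgeR adjusted p = 0.00324). COL5A3 was higher in all 3 co-cultured knockout libraries than in any of the other 9 libraries. The co-cultured knockout values of LAMB3 lay above the 3 lone knockout values and below the 3 co-cultured control values. COL5A3 passed the filter on low counts only through the co-cultured knockout, so that it was tested because it was high there. It rests on few counts outside the co-cultured knockout, with 5 over the 3 lone knockout libraries and 29 over the 3 co-cultured control libraries. The part of GC content in either interaction was not tested beyond the values with GC offsets, 4.56 for COL5A3 and 1.19 for LAMB3. The control-labelled libraries, which go against the A549 label, enter both.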

How the results depend on the processing

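No called member changed direction under any alternative. Members called in knockout against control stayed within 1.5 times the reported count, alone and co-cultured. Of all genes, 5259 were called in co-culture with a log2 fold change of at least 1 also required, in place of 8276. For co-cultured against lone knockout, 12 members became 20 with GC offsets within groups, 7 with that fold requirement, and 6 to 20 when 1 library was left out. All genes called there, 1907, became 3340 without the filter on low counts, 3347 with DESeq2, 635 with only the groups compared, 5001 with GC offsets against all libraries, 6277 with offsets within groups, 1059 with the fold requirement, and 548 to 5648 with 1 library left out. Between control groups, 2 genes were called without the filter, and 211 genes with 3 members with GC offsets within groups. The interaction, called for 2 members, was called for 8 without the filter, 7 with DESeq2, 7 and 14 with GC offsets (all libraries, within groups), and 1 to 13 with 1 library left out. For all genes, 301 became 1342, 877, 1530, 4675, and 118 to 3638. The summed level in the lone knockout was 7943 CPM with library size only. The cause of these shifts was not tested.

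Replicate numbers did not pair the libraries across all groups. Of 18 same-number correlations of deviations, 7 were over 0.1 (-0.60 to 0.49), and 7 of 18 were best with their own number. Between lone control, co-cultured control and lone knockout, they were 0.19 to 0.49 for replicates 1 and 3. For replicate 2 they were -0.07 to -0.02. Those with the co-cultured knockout ran from -0.60 to 0.14. With a replicate block, 33, 10, 36, 0 and 1 members were called in the 5 comparisons, with COL1A1 and COL4A4 lost in knockout co-culture and COL5A3 in the interaction (adjusted p = 0.0532). All genes called in knockout co-culture were 1080 with the block and 4301 with the block and GC offsets, and in the interaction 179 and 964.

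At 16.2 to 33.6 counts per CPM, members under 1 CPM (among them COL3A1, COL5A3, LAMA4 and NID2 in some groups) are limited by counting error, and the 4 members that failed the filter were not tested.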
